A study of Rattus norvegicus with 15 samples.

Results

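The genes of 4 small leucine-rich proteoglycans of tendon, decorin (Dcn, ENSRNOG00000004554), biglycan (Bgn, ENSRNOG00000055962), fibromodulin (Fmod, ENSRNOG00000003183) and lumican (Lum, ENSRNOG00000004610), were followed along the rat Achilles tendon. They were picked by gene identifier, as 4 of the 32883 genes in the count table, and all 4 passed the filter on low counts that left 15037 genes to test. The tendons came from 5 healthy, untreated male Sprague-Dawley rats aged 8 weeks, and the tissue was cut out between the muscle junction and the bone insertion. Distal, middle and proximal segments of equal length each gave 1 library per rat, so that every group has the same animals, and the tissue of both limbs was pooled within a library. The libraries held 15413963 to 30178952 read counts in genes.

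Small leucine-rich proteoglycans are secreted proteins built around repeats rich in leucine, and they bind fibrillar collagen and help to set how wide and how regular the fibrils become. Decorin and biglycan belong to class I of the family and carry chondroitin or dermatan sulfate chains. Fibromodulin and lumican belong to class II, can carry keratan sulfate, and compete for the same region of type I collagen.

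The sequence around the start site is shown for Fmod and Lum, the 2 of the 4 genes with an entry in the RefSeq promoter table of build GRCr8, as context for where their transcripts begin. Each sequence runs 5′ to 3′ from 250 bases before the start site to 50 bases after it, and capitals mark the E-box CANNTG, the kind of site that basic helix-loop-helix factors such as scleraxis bind. The Fmod sequence is chr13:48045317-48045616 and the Lum sequence chr7:34245456-34245755, both on the plus strand.
Fmod: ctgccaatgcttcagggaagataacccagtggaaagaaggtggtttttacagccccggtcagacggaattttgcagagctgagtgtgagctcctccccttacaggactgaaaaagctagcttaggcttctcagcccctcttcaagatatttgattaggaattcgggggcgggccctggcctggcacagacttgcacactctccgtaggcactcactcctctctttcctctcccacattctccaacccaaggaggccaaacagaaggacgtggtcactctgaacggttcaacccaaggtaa
Lum: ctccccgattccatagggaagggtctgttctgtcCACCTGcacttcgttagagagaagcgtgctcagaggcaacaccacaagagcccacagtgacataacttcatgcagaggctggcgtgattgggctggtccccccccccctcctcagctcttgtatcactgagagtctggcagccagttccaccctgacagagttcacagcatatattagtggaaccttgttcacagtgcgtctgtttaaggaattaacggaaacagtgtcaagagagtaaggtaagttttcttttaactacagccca
CANNTG matched once in the Lum sequence, at position -216 where 0 is the first base of the transcript, and had 0 matches in the Fmod sequence. Of 33469 promoters of this length 72.1% held at least 1 match, on either strand. The CCAAT box was found once in each, at -247 in Fmod and -130 in Lum, and in 37.5% of all promoters. TATAAA was found in neither, and in 14.2% of all promoters. In the RefSeq gene table of the same build, Dcn and Lum are adjacent coding genes, with keratocan (Kera) next to Lum, and Prelp is the coding gene before Fmod. Kera and Prelp also encode small leucine-rich proteoglycans. Dcn and Fmod each overlap 1 long noncoding RNA gene there. The counts were made per Ensembl gene with build rn6, and the strand setting of the counting is not given in the sources used here. Whether these overlaps touch the counts is therefore not known.

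All 4 genes were highest in distal tendon on average, and Dcn had the largest fitted decline. Levels are CPM (read counts scaled to a common library size) after normalization by trimmed mean of M-values (TMM), and they are compared within a gene only, since transcript length was not corrected for. From distal to proximal tendon Dcn fell to 0.332 of its level in the fitted means, while Bgn stood at 0.526 and Lum at 0.573. All of these passed the test, and Fmod, at 0.557, did not. That made 3 of 4 genes called lower in proximal tendon, against 19.7% of all genes tested (edgeR quasi-likelihood test, rat as blocking term, p-values adjusted over all 15037 genes and called below 0.05). The median log2 fold change of the 4 genes was -0.89, and that of all genes tested 0.02. In bulk tissue, fewer cells that make a transcript and less transcript per cell cannot be told apart.

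**Figure D1:**
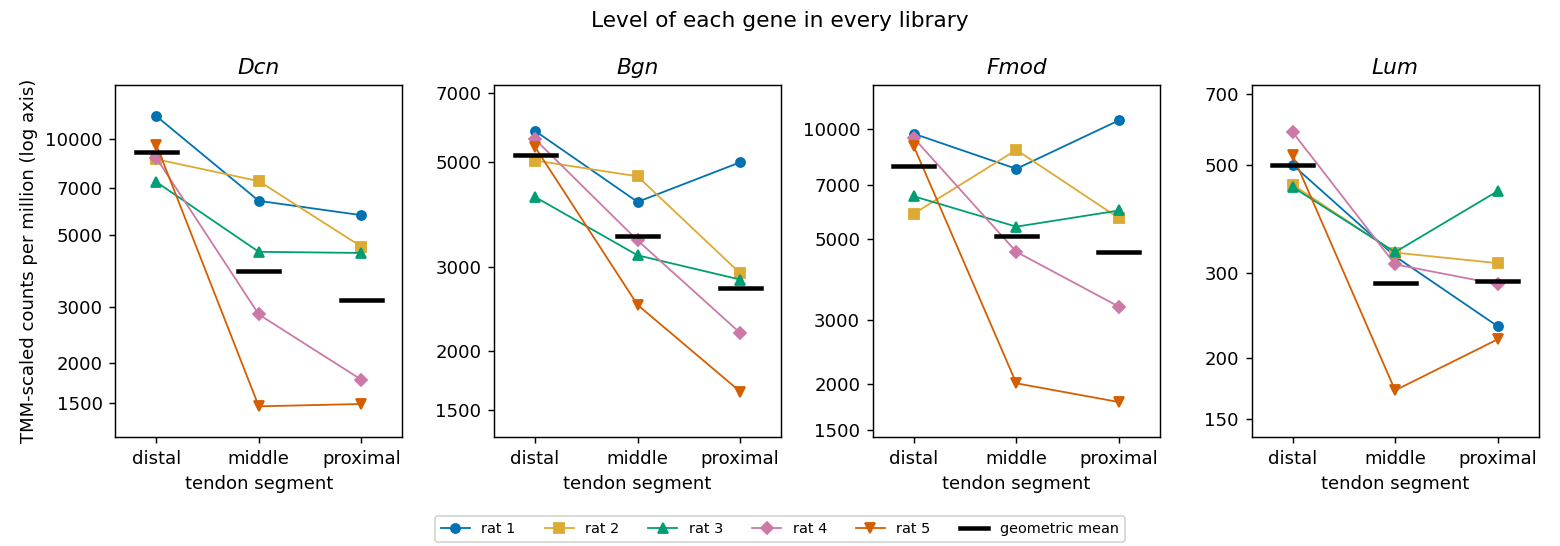
TMM-scaled CPM on a log axis for each gene in the distal, middle and proximal segments. Each coloured line joins the 3 libraries of 1 rat and black bars are geometric means over 5 rats. All proximal libraries lie below all distal libraries for Dcn and Lum, and the lines of Fmod cross.

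Decorin, the proteoglycan whose single glycosaminoglycan chain bridges neighbouring collagen fibrils, had the largest fitted change of the 4. In distal tendon Dcn stood at 11743, 8622, 7329, 8712 and 9577 CPM in rats 1 to 5. The middle segments of the same rats had 6400, 7370.5, 4442, 2837 and 1469 CPM. The proximal segments had 5776, 4611, 4407, 1778 and 1494 CPM. Every proximal value lay below every distal value, and the middle and distal groups overlapped by 1 library, the middle segment of rat 2. Such a separation of proximal below distal was seen for 12.6% of all genes tested. The within-rat difference, proximal minus distal, was -1.53 ± 0.893 on the log2 CPM scale (SD, n = 5), negative in 5 of 5 rats as for 21.9% of all genes. Its size differed between animals, from -0.73 in rat 3 to -2.68 in rat 5. The model put the log2 fold change at -1.59 ± 0.327 (edgeR, adjusted p = 0.00286), with an approximate SE derived from the F statistic, and 2.51% of all genes had a lower one.

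Biglycan, the class I relative of decorin with a pair of glycosaminoglycan chains, had a smaller fitted change, and the difference from Dcn did not pass its own test, given with the ratios. Distal Bgn levels were 5816, 5038, 4221, 5586 and 5380.5 CPM in rats 1 to 5. Middle levels were 4120.5, 4665, 3180, 3418 and 2499.8 CPM, and proximal levels 4993, 2915, 2827, 2182 and 1641.5 CPM. The proximal library of rat 1 lay inside the distal range, and the other 4 proximal libraries lay below it. The within-rat difference, proximal minus distal, was -0.93 ± 0.600 log2 CPM (SD, n = 5), with the smallest in rat 1 (-0.22) and the largest in rat 5 (-1.71). The model put the log2 fold change at -0.93 ± 0.202 (approximate SE, edgeR, adjusted p = 0.00376). In 4 of 5 rats the level fell in the order distal, middle, proximal, and in rat 1 the middle was lowest.

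Fibromodulin, which is abundant in tendon and affects collagen fibril maturation and crosslinking, had the widest spread of within-rat differences among the 4 genes. Fmod measured 9683, 5849.6, 6529, 9423 and 8943 CPM in the distal segments of rats 1 to 5. In the middle segments it measured 7762, 8744, 5392, 4601 and 2011 CPM, and in the proximal segments 10532, 5689.9, 5970.5, 3259 and 1787 CPM. Rats 1, 2 and 3 had nearly level proximal and distal values, with log2 differences of 0.12, -0.04 and -0.13. In rats 4 and 5 the proximal segment was lower by far, at -1.53 and -2.32. The highest of all 15 values was a proximal one, in rat 1, and so was the lowest, in rat 5. The mean within-rat difference was -0.78 ± 1.09 log2 CPM (SD, n = 5), smaller than its spread, and the model put the log2 fold change at -0.84 ± 0.374 (approximate SE, edgeR, adjusted p = 0.0926). The call depended on the tool and on 1 library: DESeq2 gave an adjusted p of 0.0278, and edgeR without the distal library of rat 2 gave 0.0417 at a log2 fold change of -1.08. The log2 fold change of Fmod was -0.40 without rat 5. In either direction, DESeq2 called 44.8% of all genes tested in this comparison, and edgeR without that distal library 36.9%.

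Lumican, the class II proteoglycan that shares the collagen site of fibromodulin, had the fewest counts of the 4 genes, from 3975 to 13715 per library. Its distal levels were 499.7, 455, 449.8, 583 and 524 CPM in rats 1 to 5. Its middle levels were 324, 329.7, 330.5, 312 and 172 CPM, and its proximal levels 233, 314, 441, 284 and 219 CPM. Neither the middle nor the proximal group overlapped the distal group, although the proximal segment of rat 3 was within 2% of the distal segment of that rat (98.1% of its level). The within-rat difference, proximal minus distal, was -0.79 ± 0.506 log2 CPM (SD, n = 5), negative in 5 of 5 rats. The model put the log2 fold change at -0.80 ± 0.184 (approximate SE, edgeR, adjusted p = 0.00520).

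Genes chosen for being far higher in proximal than in distal tendon were set beside these proteoglycans. A set of 112 such genes, defined by their difference in rats 3 and 4 with earlier results known, took 0.0165 to 0.0204% of counts in distal libraries and 0.0317 to 3.91% in proximal libraries. In the proximal libraries of rats 3 and 4, whose values chose the set, the share was 3.67% and 1.99%, and in those of rats 1 and 5 it was 0.127% and 3.91%. Rat 2 had the lowest share. Proximal levels as a share of distal levels in rats 1 to 5 were 49.2, 53.5, 60.1, 20.4 and 15.6% for Dcn. They were 85.9, 57.9, 67.0, 39.1 and 30.5% for Bgn, and 46.6, 69.0, 98.1, 48.7 and 41.7% for Lum. For Fmod they were 108.8, 97.3, 91.4, 34.6 and 20.0%. With the mean level of the 112 genes as a covariate beside the rat block, 0 of the 4 genes passed in proximal against distal tendon, at log2 fold changes of -0.96 for Dcn, -0.62 for Bgn, -0.05 for Fmod and -0.69 for Lum (edgeR, adjusted p = 0.309, 0.295, 0.972 and 0.212). In that comparison 14.8% of all genes tested were called in either direction, against 41.9% without the covariate. In middle against distal tendon the same fit called Dcn and Lum, and not Bgn or Fmod. The log2 fold changes of Dcn and Lum were -1.12 and -0.79 (edgeR, adjusted p = 0.0341 and 0.0169). There 25.0% of all genes were called, against 24.8% without the covariate. Since the covariate moves with region, a lost difference and lost precision cannot be told apart, and the part of the 112 genes in the proteoglycan levels was not tested. Cell type markers could not be looked up by name in these data, so neither the tissue label nor other cell types were checked against markers.

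In the fitted means, the step from distal to middle tendon was larger than that from middle to proximal tendon for all 4 genes, a contrast that did not pass when tested. In middle against distal tendon 2 of 4 genes were called lower, Dcn and Lum, against 11.6% of all genes tested (edgeR, adjusted p under 0.05). Dcn had a log2 fold change of -1.28 ± 0.326 (approximate SE, adjusted p = 0.0160) and Lum one of -0.82 ± 0.184 (adjusted p = 0.00890). Bgn had -0.58 ± 0.199 and Fmod -0.72 ± 0.372, with adjusted p-values of 0.0529 and 0.187. Bgn lay close to the threshold and passed in 5 of 31 alternatives: with DESeq2 (adjusted p = 0.0124), with library totals alone (0.0341), and when 1 library was dropped, which was distal from rat 1 (0.0392), middle from rat 2 (0.0413) or proximal from rat 1 (0.0285). In this comparison DESeq2 called 29.5% of all genes in either direction, against 24.8% in the main edgeR fit. Fmod passed in 0 of 31, with a lowest adjusted p of 0.0868. All 5 middle libraries lay below all 5 distal libraries for 1 of the 4 genes, Lum, and for 7.49% of all genes. The middle value was below the distal value in 5 of 5 rats for Dcn, Bgn and Lum, as for 16.5% of all genes. For Fmod that held in 4 of 5 rats, and in rat 2 the middle value was 149% of the distal one.

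The call for Dcn in the middle segment was less firm than that in the proximal one. It was lost without the distal library of rat 4 (edgeR, adjusted p = 0.0593), without rat 4 as a whole (0.0811), without the rat block (0.113) and in a fit of only these 2 regions (0.0580), while its log2 fold change stayed between -1.56 and -0.90 over all alternatives. Lum was narrowly lost without rat 4 (0.0513). The middle library of rat 5 was the lowest middle library for each of the 4 genes, and the 112 proximal-end genes took 0.480% of its counts, against 0.0210 to 0.0301% in the other middle libraries. Without it the log2 fold changes were -1.04 for Dcn, -0.53 for Bgn, -0.49 for Fmod and -0.68 for Lum, and Dcn and Lum still passed (adjusted p = 0.0457 and 0.0250).

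**Figure D2:**
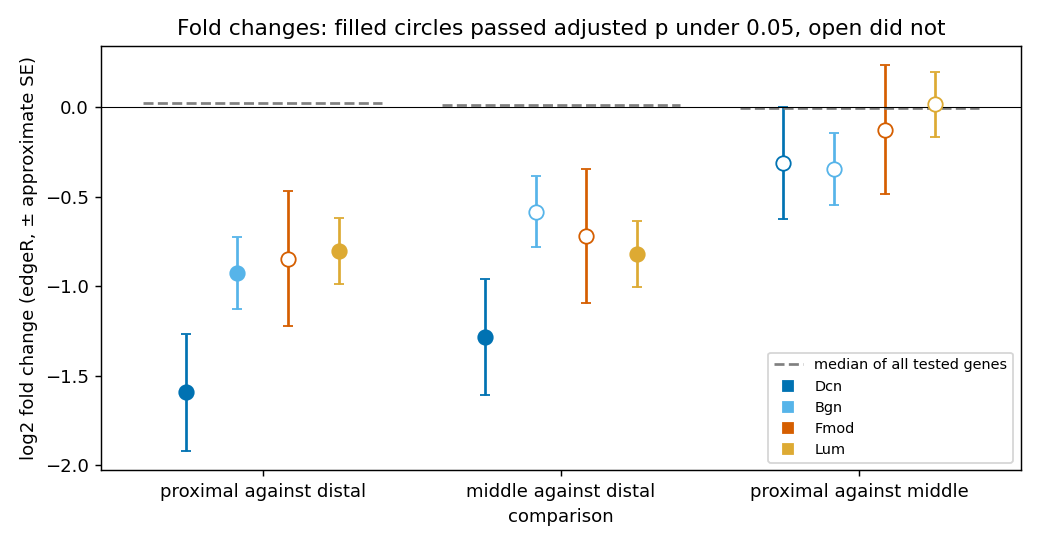
Log2 fold changes of the 4 genes in 3 comparisons, with approximate standard errors from edgeR. Filled circles passed an adjusted p of 0.05, open circles did not, and dashed lines are the median of all 15037 genes tested. All 4 genes lie below 0 in both comparisons with distal tendon, from -1.59 for Dcn to -0.58 for Bgn.

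Between the middle and the proximal segment 0 of 4 genes passed, where 0.412% of all genes did (edgeR, adjusted p under 0.05). None of the 4 had an unadjusted p under 0.05, and DESeq2 and limma called 0 of them as well. Of all genes, DESeq2 called 7.97% and limma 0.652% in this comparison. The log2 fold changes, proximal against middle, were -0.31 ± 0.313 for Dcn, -0.35 ± 0.199 for Bgn, -0.13 ± 0.361 for Fmod and 0.02 ± 0.182 for Lum (approximate SE). The signs of single rats were mixed. Bgn was lower in the proximal than in the middle segment in 4 of 5 rats, and so was Dcn, although in rats 3 and 5 its 2 levels were within 2% of each other. Lum was lower in 3 rats and higher in rats 3 and 5. A test of the middle segment against the mean of both ends, which compares the 2 steps, called 0% of all genes and 0 of these 4 (edgeR). Lum had the smallest p of the 4 there, 0.0243 before and 0.254 after adjustment (edgeR), at a log2 difference of -0.42. DESeq2 and limma called 0 of the 4 in this test, where they called 3.95% and 0% of all genes.

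The balance between the proteoglycans was compared by the ratio of 2 genes within a library, which does not depend on how libraries are scaled to each other. All 6 pairs were compared between proximal and distal tendon with an exact permutation test (two-sided, Benjamini-Hochberg adjustment over the 6 pairs). The labels of all 3 regions were shuffled inside each rat, so the p-values depend on the middle libraries too. They ask whether the 3 regions are interchangeable within a rat, and do not test proximal against distal tendon alone. Swapping only the 2 ends was not done, and with 5 rats it could not give a two-sided p under 0.05. The ratio of Fmod to Dcn counts had a geometric mean of 0.872 at the distal end, 1.31 midway and 1.46 at the proximal end. In distal libraries it ran from 0.678 to 1.08, in middle libraries from 1.19 to 1.62 and in proximal libraries from 1.20 to 1.83, so that distal libraries did not overlap either other group. The proximal minus distal difference was 0.75 ± 0.293 on the log2 scale (SD, n = 5), positive in 5 of 5 rats (p = 0.00129, adjusted p = 0.00772, exact permutation). With the median over rats in place of the mean the difference was 0.76 and did not pass (adjusted p = 0.0741, exact permutation). A gain against Dcn was common: 69.5% of all other genes tested had a ratio to Dcn that was higher in every proximal than in every distal library. The rise of this ratio from distal to proximal tendon is therefore not particular to Fmod. No such share over all genes was worked out for middle against distal tendon, or for a ratio to Dcn that rose in 5 of 5 rats.

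The Lum to Dcn ratio had geometric means of 0.0550, 0.0736 and 0.0915 in distal, middle and proximal tendon, a proximal minus distal log2 difference of 0.73 ± 0.620 (SD, n = 5; p = 0.00720, adjusted p = 0.0216, exact permutation). It was higher in the proximal segment in 4 of 5 rats, and in rat 1 it went from 0.0425 to 0.0403. The adjusted p was 0.0880, 0.120 and 0.0679 without rat 3, 4 and 5 (exact permutation), and 0.0741 with the median over rats. For the 2 class I genes, the Bgn to Dcn ratio was higher in the proximal segment in 5 of 5 rats, by 0.60 ± 0.425 on the log2 scale (SD), and did not pass after adjustment (p = 0.0363, adjusted p = 0.0725, exact permutation). Distal and proximal libraries overlapped in both ratios, with distal maxima of 0.0670 for Lum to Dcn and 0.641 for Bgn to Dcn. The proximal minima were 0.0403 and 0.632. Of all other genes tested, 69.5% had a ratio to Dcn that was higher in every proximal than in every distal library. A rise against Dcn is therefore not particular to Lum or Bgn.

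No difference in change was detected among Bgn, Fmod and Lum. The Fmod to Bgn ratio differed between proximal and distal tendon by 0.15 ± 0.541, the Lum to Bgn ratio by 0.14 ± 0.582 and the Lum to Fmod ratio by -0.01 ± 0.884 on the log2 scale (SD, n = 5; exact permutation, adjusted p = 0.702, 0.702 and 0.967). These spreads leave room for sizeable differences in either direction. The Lum to Fmod ratio in particular moved in opposite directions, from 0.0516 in the distal to 0.0221 in the proximal segment of rat 1 and from 0.0586 to 0.122 in those of rat 5. Against the middle segment, the proximal Fmod to Bgn ratio was higher in 5 of 5 rats, by 0.22 ± 0.150 (SD), a difference that was not tested. No share over all genes was worked out for a ratio to Bgn.

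**Figure D3:**
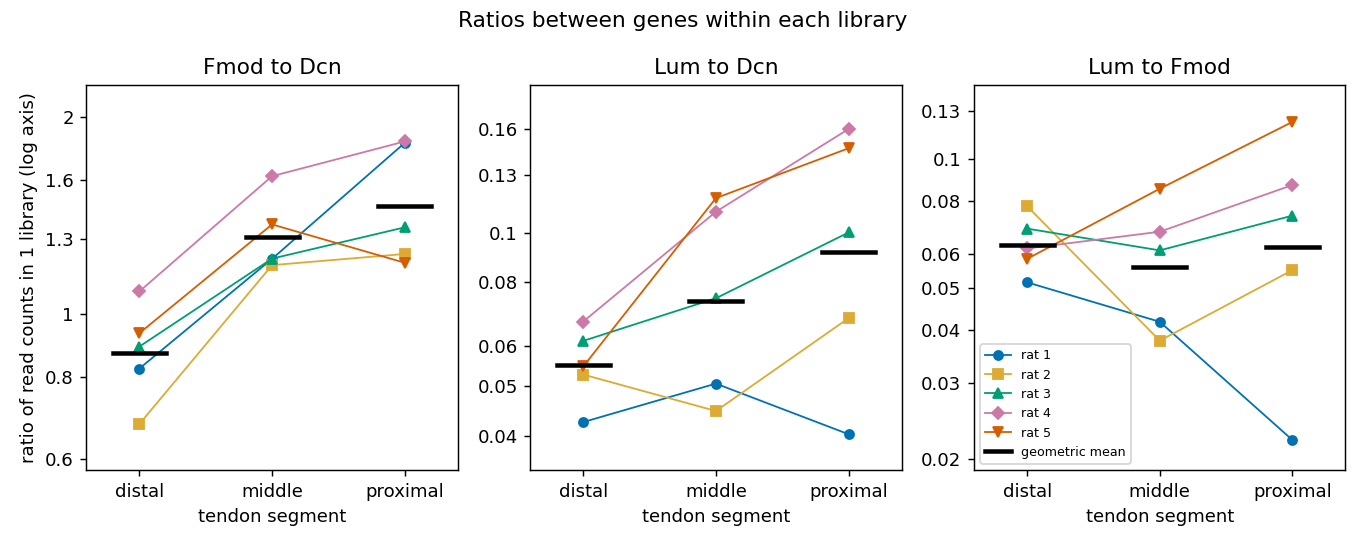
Ratio of read counts of 2 genes within a library, on a log axis, for Fmod to Dcn, Lum to Dcn and Lum to Fmod. Lines join the libraries of a rat and black bars are geometric means over 5 rats. The Fmod to Dcn ratio is higher in all middle and proximal libraries than in any distal library, and the Lum to Fmod lines diverge.

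The spread between rats was larger in middle and proximal than in distal tendon for each of the 4 genes, a difference that was not tested. The SD of Dcn log2 CPM over 5 rats was 0.249 in distal, 0.946 in middle and 0.886 in proximal libraries. That of Fmod was 0.334, 0.837 and 0.971. Both genes were among the most variable in the middle and proximal segments, where 4.40 and 6.83% of all genes had a larger SD than Dcn and 6.36 and 5.43% one larger than Fmod. Bgn had SDs of 0.181, 0.348 and 0.594, and Lum of 0.155, 0.411 and 0.402. Rat 5 set much of the middle values: without it the middle SDs were 0.616 for Dcn, 0.252 for Bgn, 0.435 for Fmod and 0.0388 for Lum, the last below its distal SD of 0.174 in the same 4 rats. The median SD over all genes was 0.177 in distal, 0.255 in middle and 0.248 in proximal libraries. Among the 100 most abundant genes it was 0.152, 0.356 and 0.352, so a larger spread outside the distal segment was not particular to these 4 genes. A test of any difference between rats beyond region called 0 of the 4 genes, and 2.28% of all genes (edgeR, adjusted p under 0.05). For Dcn its unadjusted p was 0.0344 (adjusted p = 0.160), for the other 3 genes it was 0.0690 or more. DESeq2 called Dcn in this test, where it called 19.3% of all genes, and limma called 0 of the 4. Without the distal library of rat 5, edgeR called Dcn and Fmod and 11.4% of all genes.

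**Figure D4:**
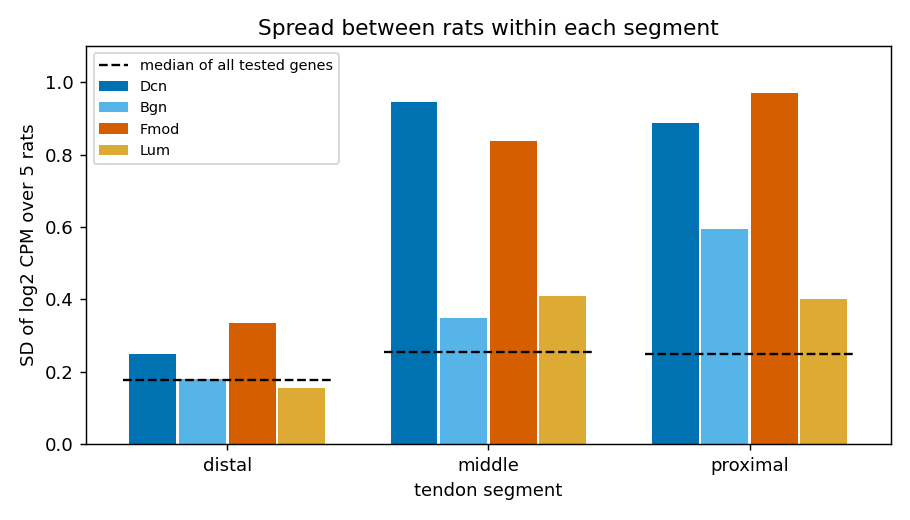
Standard deviation of log2 CPM over the 5 rats in each segment, as 1 bar per gene. Dashed lines are the median over all genes tested. Dcn and Fmod exceed 0.8 in the middle and proximal segments and stay below 0.4 in the distal segment.

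Together the 4 genes took 2.17 ± 0.336% of all counts at the distal end, 1.38 ± 0.467% midway and 1.21 ± 0.456% at the proximal end (SD, n = 5). By rat, the proximal sum ran from 1.79% in rat 1 to 0.630% in rat 5, which had the lowest middle sum as well, 0.755%. Long transcripts weigh more in such sums.

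The genes most like each proteoglycan were sought by the correlation of log2 CPM over the 15 libraries, among 5403 other genes with a mean of at least 5 log2 CPM. The 15 libraries come from 5 rats and share the region differences, so the correlations are descriptions. Dcn was followed most closely by ENSRNOG00000010529 (r = 0.984), which went from 2098 ± 608 CPM in distal through 959 ± 587 to 669.6 ± 447 CPM in proximal tendon (SD, n = 5). Bgn was followed most closely by ENSRNOG00000002452 (r = 0.987), a less abundant gene with a shallower course, from 53.0 ± 4.67 through 42.6 ± 5.94 to 37.7 ± 9.95 CPM. In 3 other settings (rat means taken out, Spearman rho, a lower floor on abundance) these r values stayed at 0.975 or more for Dcn and 0.968 or more for Bgn. The outcome of the search changed in 2 of the 3 for Dcn and in 1 for Bgn, so the gene named as closest may depend on the setting. A correlation of at least 0.9 was shared by 247 genes with Dcn, 240 with Bgn, 185 with Fmod and 1 with Lum. Among the proteoglycans themselves, Dcn correlated with Bgn and Fmod at r = 0.923 and 0.918, and Lum with Dcn, Bgn and Fmod at 0.806, 0.667 and 0.676. With the mean of each rat taken out, the correlation of Lum with Dcn was 0.926, beside 0.934 and 0.911 for Bgn and Fmod with Dcn, and that of Lum with Bgn and Fmod was 0.762 and 0.761.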

How the data were processed

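Per the labels' protocols, poly(A) RNA of pooled left and right tendon segments was made into strand-specific paired-end libraries. The authors deposited raw counts per Ensembl gene, not normalized. The submitters' processing notes list, with no options, HISAT2 2.2.1, featureCounts 2.0.1, fastp 0.19.10, SAMtools 1.9 and build rn6, and the annotation release is not given in the sources used here. Of 32883 genes, 10178 were at 0 in all libraries.

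In R 4.3.3, edgeR 4.0.16 fitted region and rat over 15 libraries (filterByExpr, TMM, robust quasi-likelihood), with Benjamini-Hochberg adjustment over the 15037 genes tested. Alternatives used DESeq2 1.42.0, limma 3.58.1 (voom), other scalings and filters, and left out each rat and library. Log2 CPM values had a prior count of 2. Approximate SEs come from the fold change and the F statistic. Pairing follows from the labels, which name the rat of every library. Deviations of libraries from one rat correlated at r over 0.1 in 13 of 15 pairs. Pairs from different rats were not computed, so this is no test of the pairing. The closest libraries of a region differed by a chi-square of 21.1 per degree of freedom, far beyond sampling noise. The fit was tested on simulated counts drawn without rat effects. The permutation was tested on simulated normal values whose spread was not taken from the ratios here. Neither simulation shows how the tests perform at the differences between rats seen in these data.

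The genes, lists and tests were chosen with earlier results of these data known. The gene table (RefSeq, GRCr8) pairs 0 of the identifiers with symbols, so the names of the 4 genes come from the rule that selects them, and the pathway and cell type lists planned by symbol were not applied. Genes named for likeness are the closest to each of the 2 proteoglycans with the lowest proximal-to-distal fold change.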

Additional observations from a re-analysis of the deposited data

Results flagged for a closer look

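Of 30 sets of 5 libraries screened, 12 of gene levels and 18 of ratios, 2 held 1 library far from the other 4, where chance gives about 1 in 20 sets, or 1.5. The Lum level in the middle library of rat 5 was 7.42 log2 CPM, against 8.28 to 8.37 in the other middle libraries. The Fmod to Bgn ratio in the distal library of rat 2 was 0.216 on the log2 scale, against 0.629 to 0.754 in the other distal libraries. The gap made up 91.1% and 76.8% of the whole range of these sets.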

How the results depend on the processing

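For proximal against distal tendon, 30 of 31 alternatives, replicate block or not, called 3 or 4 of the 4 genes, and 0 passed where the replicate block was joined by the proximal-end covariate. For middle against distal tendon 27 of 31 called 2 or 3 genes, 1 gene passed with no replicate block and 1 with only the 2 regions compared, and 0 to 3 passed with a rat or library left out. For any difference between rats, 1 passed with DESeq2 and 0 to 2 with a library left out. The cause was not tested, except that fewer libraries enter some of these fits. Proximal against middle, the sign turned for Dcn with the covariate (0.15), for Fmod with the covariate (0.44) and when a rat or library was left out (-0.33 to 0.13), and for Lum with upper-quartile scaling (-0.00165) and when a rat or library was left out (-0.14 to 0.15). With the median over rats in place of the mean, the proximal minus distal log2 difference was 0.76 for the Fmod to Dcn ratio and 0.71 for Lum to Dcn (adjusted p = 0.0741 for both, exact permutation), and 0.10 for Lum to Fmod. Leaving out each rat gave 0.56 to 0.94 for Lum to Dcn and -0.28 to 0.29 for Lum to Fmod. The count over all genes ran from 2218 to 6732 around 6300 for proximal against distal, from 1849 to 4433 around 3731 for middle against distal, from 0 to 1198 around 62 for proximal against middle, from 0 to 594 around 0 for the middle against both ends and from 134 to 2904 around 343 for differences between rats. The highest of these counts came from DESeq2 in every case.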
